A study of Mus musculus with 72 samples.

Results

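The 37 genes described here are imprinted genes of the mouse, chosen by name from a list and found in the deposited gene-level table by their symbols. The choice was made with earlier results of these data known. All 37 occur there once each, among 56691 genes, and all 37 passed the filter on low counts that left 18727 genes for testing. Early secondary follicles, which hold a growing oocyte inside layers of granulosa cells with a thin outer theca, were cultured for 24 h with no FSH or with 1 or 10 ng/ml of FSH21 or FSH24, glycoforms of follicle-stimulating hormone of which FSH21 carries fewer glycan chains. Each of the 6 groups holds 3 libraries, which the series calls biological replicates, and each library carries a number. Untreated libraries 2, 3 and 4 go with the 10 ng/ml cultures of the same numbers, and untreated libraries 1, 5 and 6 with the 1 ng/ml cultures of those numbers. All follicles, untreated ones included, grew in the same medium with albumin, fetuin and insulin-transferrin-selenium. Strain, age, genotype and the number of follicles in a library are not given in the sources used here.

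An imprinted gene is expressed mainly from either the maternal or the paternal copy, usually owing to a methylation mark laid down in the egg or in the sperm. The marked copy is not always the silent copy of a given gene. The marks of most maternally methylated regions are set in the oocyte as it grows, which is the stage of these follicles, and many imprinted genes act on fetal, placental and postnatal growth. Counts of whole follicles do not tell the parental copies apart, several of the genes are imprinted in some tissues only, and "maternally expressed" and "paternally expressed" below give the usual assignment, not a measurement.

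Promoter sequences are shown for 4 of the genes whose RNA rose with FSH, because FSH acts through cyclic AMP and many genes switched on by cyclic AMP carry the response element TGACGTCA or only its core TGACG, both searched here on both strands; the full element holds a core on each strand. Each window is the 250 bases before a RefSeq start in build GRCm38.p6, with cores in capitals. The windows are Meg3 at chr12:109540746-109540995 (plus strand), Rian at chr12:109603695-109603944 (plus strand), Peg3 at chr7:6730420-6730669 (minus strand) and Igf2r at chr17:12769707-12769956 (minus strand).
Meg3: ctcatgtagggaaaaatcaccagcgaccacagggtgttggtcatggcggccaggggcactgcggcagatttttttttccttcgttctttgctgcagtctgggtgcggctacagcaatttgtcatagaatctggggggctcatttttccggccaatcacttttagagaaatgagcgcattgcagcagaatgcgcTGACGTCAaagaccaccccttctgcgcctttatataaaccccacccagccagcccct
Rian: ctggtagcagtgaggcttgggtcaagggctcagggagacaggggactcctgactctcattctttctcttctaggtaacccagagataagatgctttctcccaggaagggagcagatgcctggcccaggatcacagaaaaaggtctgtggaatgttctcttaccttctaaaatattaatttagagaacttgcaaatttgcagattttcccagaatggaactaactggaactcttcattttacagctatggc
Peg3: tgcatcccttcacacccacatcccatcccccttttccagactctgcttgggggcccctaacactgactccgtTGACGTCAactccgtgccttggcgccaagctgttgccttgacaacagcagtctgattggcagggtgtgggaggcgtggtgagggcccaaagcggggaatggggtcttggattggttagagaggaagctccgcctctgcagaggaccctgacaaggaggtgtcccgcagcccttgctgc
Igf2r: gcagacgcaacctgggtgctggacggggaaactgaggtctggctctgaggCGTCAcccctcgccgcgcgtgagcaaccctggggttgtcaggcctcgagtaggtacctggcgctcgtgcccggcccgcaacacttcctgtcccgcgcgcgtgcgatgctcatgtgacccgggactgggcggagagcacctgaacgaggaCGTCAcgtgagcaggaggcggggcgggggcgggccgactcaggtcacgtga
The Meg3 window holds the full element, which begins 57 bases before the start, and 10 CpG dinucleotides. In the Peg3 window the full element begins 178 bases before the start, with 8 CpG dinucleotides. The Igf2r window holds 2 cores, beginning 200 and 51 bases before the start, and 27 CpG dinucleotides, while the Rian window holds no core and no CpG. In the longer RefSeq windows, which run from 250 bases before to 50 after a start, 30 of the 37 genes have an entry, with 44 windows. Of the genes that rose with FSH and are not printed, H19 has no entry, and Mirg has a window without a core. That Mirg window, at chr12:109734731-109735030, lies inside the Mirg gene as placed below, not before its first base. A second Meg3 window, further downstream, holds no core either. The full element occurs in windows of 4 genes, Meg3, Peg3, Usp29 and Zdbf2, and a core in windows of 13. Of all 32851 mouse windows of this length, 1.79% hold the full element and 20.8% a core. Those shares count windows, while the 4 and 13 count genes, some with several windows, so an excess cannot be read from them. The Peg3 and Usp29 windows lie head to head and overlap, so they share 1 element. These are matches of letters only, and Usp29 and Zdbf2 passed no test of treatment. Of the other genes with a core, Nap1l5, Grb10, Igf2 and Kcnq1ot1 had log2 fold changes below 0 with 10 ng/ml FSH21. Those of Copg2, Dlk1, Phlda2 and Ppp1r9a were above 0. None of these passed there in the test used for the counts below, though Grb10 passed, as lower, when the library number was fitted as well.

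The libraries held 17512962 to 22509759 counts (median 21425373). Summed markers of the expected cells were high in every library: 24 oocyte markers summed to 7036 to 9004 CPM (counts per 1000000, scaled between libraries), 13 granulosa markers to 7190 to 10518 CPM and 20 theca and stroma markers to 4465 to 7231 CPM. Markers of red blood cells stayed at or below 0.825 CPM in sum and those of immune cells at or below 4.99 CPM. In such bulk samples, fewer cells of a type and less RNA per cell cannot be told apart.

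Per kilobase of exon, the untreated follicles contained most RNA of Nnat, which encodes a small membrane proteolipid of neurons and endocrine cells, at 50.2 ± 9.55 CPM per kilobase (SD, n = 6). Then came Nap1l5, a nucleosome assembly protein relative without introns, at 36.5 ± 4.54, Peg10, a retrotransposon-derived gene needed in the placenta, at 36.5 ± 9.98, and Plagl1, a zinc-finger growth regulator, at 26.2 ± 4.95 CPM per kilobase. The neighbours in this order overlap, since Nnat ranged from 37.6 to 60.5, Peg10 from 25.1 to 45.9 and Plagl1 from 19.9 to 33.1 CPM per kilobase. Blcap, a gene whose intron contains Nnat, averaged 23.2 ± 0.967 CPM per kilobase, and Igf2r, the receptor that clears IGF2, 20.5 ± 1.96. Grb10, an adaptor that restrains insulin and IGF signalling, stood at 20.3 ± 4.08, and the noncoding RNA Peg13 at 14.2 ± 2.01 CPM per kilobase. Trappc9, a vesicle-tethering subunit whose intron contains Peg13, had 13.5 ± 0.590 and Ndn, the MAGE-family protein necdin, 12.4 ± 0.618 CPM per kilobase. Igf2, the fetal growth factor of the H19 domain, was far down the order, in 33rd place, at 0.426 ± 0.0745 CPM per kilobase. Magel2, another MAGE-family gene, was last, at 0.0547 ± 0.0358 CPM per kilobase. Of the Igf2 exons, 62.8% are shared with a second gene model on the same strand, so that its counts are uncertain. Mest and Copg2 share 912 exonic bases on opposite strands, and the use of strand in counting is not given in the sources used here.

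**Figure D1:**
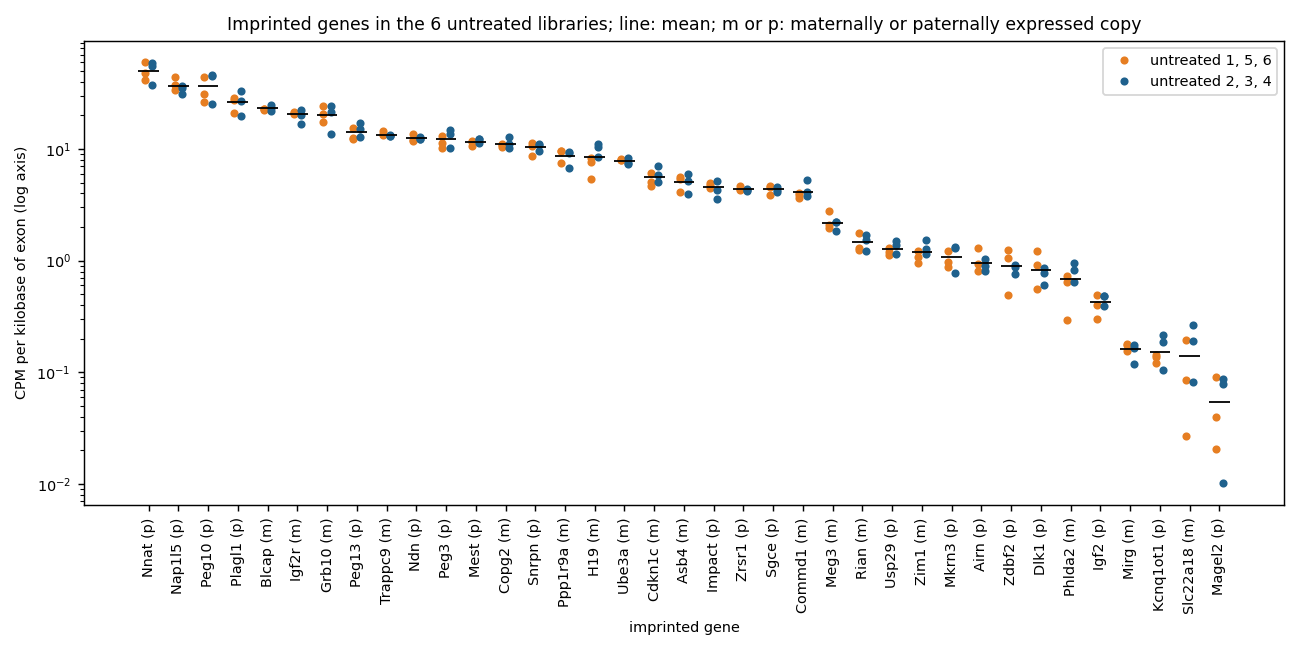
Level of each imprinted gene in the 6 untreated libraries, in CPM per kilobase of exon on a log axis; points are libraries, lines are means over the 6, and m or p after the name marks the maternally or paternally expressed gene. Nnat stands at the left with a mean of 50.2 and Magel2 at the right with 0.0547 CPM per kilobase.

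With 10 ng/ml FSH21, 7 of the 37 imprinted genes passed the test against untreated libraries 2, 3 and 4 (edgeR's quasi-likelihood test, Benjamini-Hochberg adjusted p under 0.05 over all tested genes). That is 18.9% of them, where 10.2% of all tested genes passed. Because the 37 were chosen with earlier results of these data known, the shares are descriptive, and enrichment was not tested. Noncoding RNAs of the maternally expressed copy made up most of those that rose: Meg3, Rian and Mirg of the Dlk1-Meg3 domain, and H19. The others that rose were Peg3, a zinc-finger gene of the paternal copy linked to growth and maternal behaviour, and Igf2r. Blcap alone fell. By role, 4 of 7 noncoding RNAs, 2 of 10 growth regulators, 0 of 6 genes studied mainly in neurons and 0 of 14 other genes rose, and 1 of those 14 fell. By parental copy, 5 of 17 maternally expressed and 1 of 20 paternally expressed genes rose. Both the noncoding and the maternally expressed counts include Meg3, Rian and Mirg, 3 neighbours in 1 domain. Their mean deviations went the same way in each library number, so they cannot be taken as independent cases. The 6 that rose compare with 5.96% of all tested genes, and the 1 that fell with 4.21%. The median log2 fold change over the 37 genes was 0.08, and over all tested genes 0. Treated and untreated libraries did not overlap for 15 of the 37, higher in 12 and lower in 3, where 27.7% of all tested genes did not overlap, 15.7% being higher and the rest lower.

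**Figure D2:**
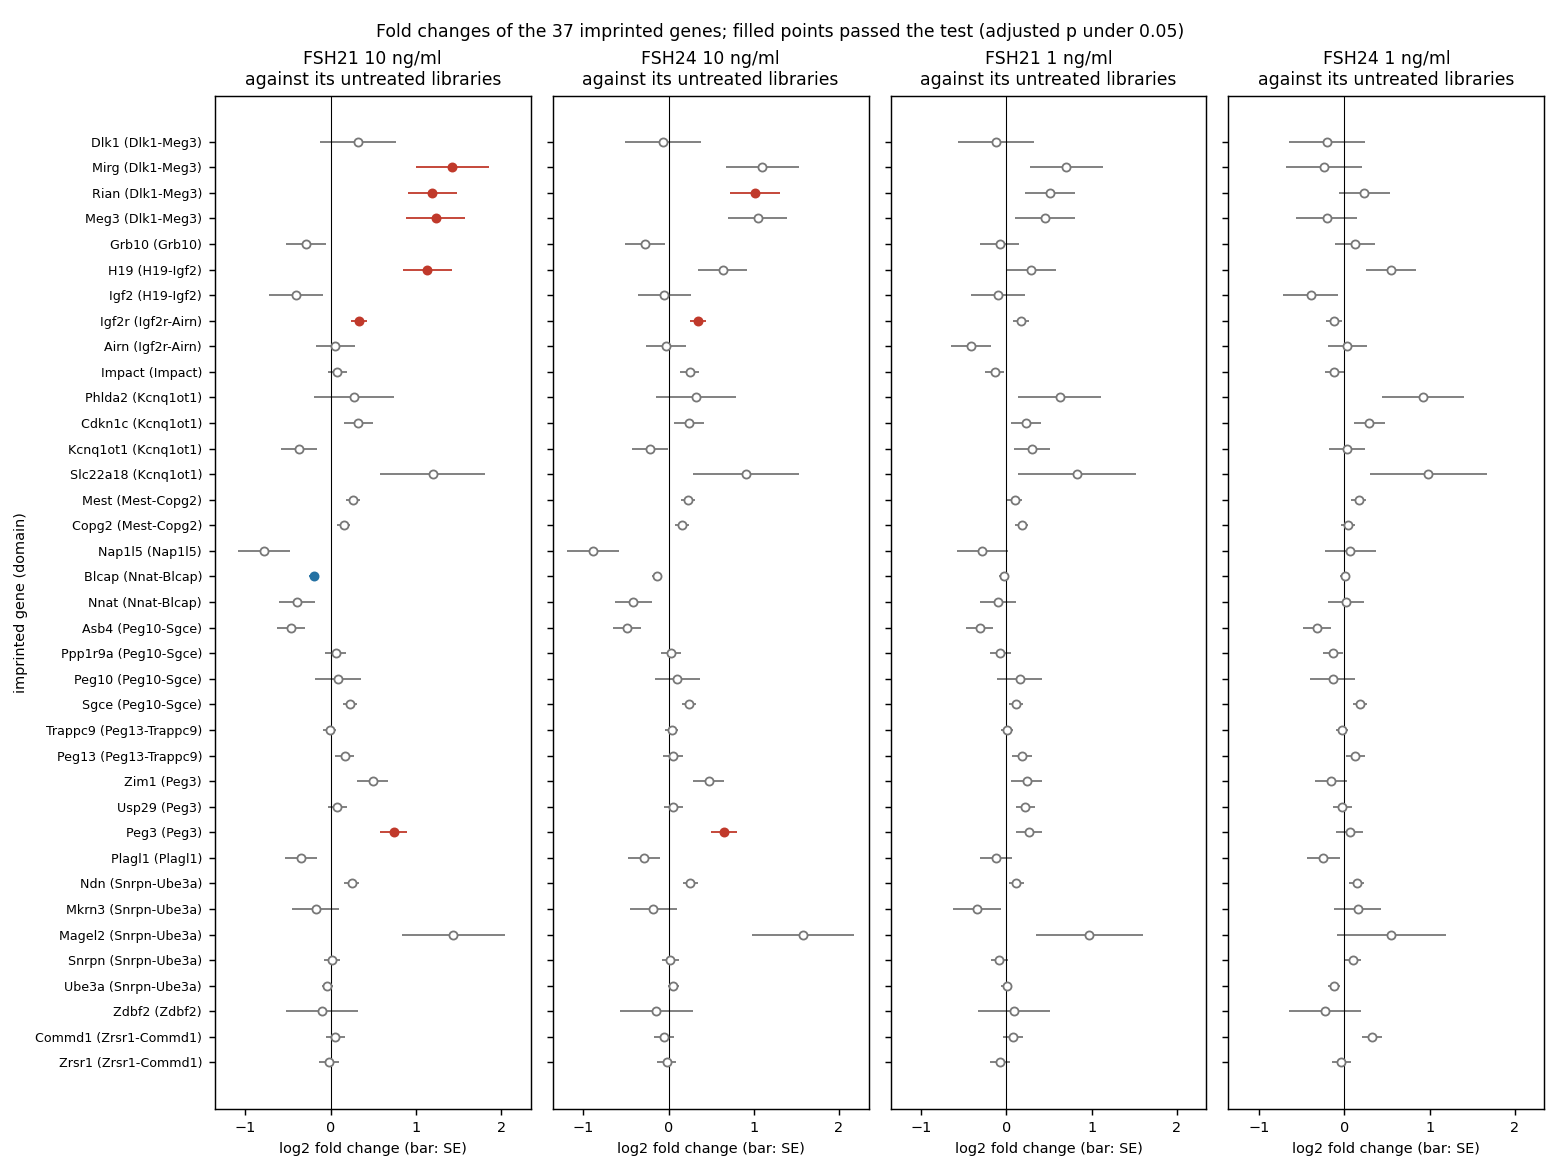
Log2 fold change of each imprinted gene (rows, with its domain) in the 4 treatment comparisons, with the SE as a bar; filled red points passed the test as higher, filled blue as lower, and open points did not pass. Filled points occur for 7 genes with 10 ng/ml FSH21 and 3 with 10 ng/ml FSH24, and for none at 1 ng/ml.

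Meg3, Rian and Mirg are neighbouring long noncoding RNAs of the maternal chromosome, and Rian and Mirg also host snoRNAs and microRNAs. Meg3 lies at chr12:109541001-109571726, Rian at chr12:109603940-109661716 and Mirg at chr12:109729764-109749460, all on the plus strand (GRCm38, GENCODE M21). Meg3 measured 40.5, 40.3 and 33.1 CPM in untreated libraries 2, 3 and 4 and 76.5, 98.6 and 91.9 CPM in the FSH21 libraries of those numbers, so that all 3 treated libraries were above all 3 untreated ones. It rose by a log2 fold change of 1.23 (SE 0.35, edgeR adjusted p = 0.0405). Rian measured 28.2, 30.9 and 22.2 CPM untreated and 59.4, 64.3 and 61.9 CPM with FSH21, again without overlap. Its log2 fold change was 1.19 (SE 0.29, edgeR adjusted p = 0.0179). Mirg, the least abundant of them, measured 1.22, 1.28 and 0.859 CPM untreated and 2.96, 3.08 and 3.02 CPM with FSH21, from 73 and 183 reads in all per group. Its groups did not overlap either, at a log2 fold change of 1.43 (SE 0.43, edgeR adjusted p = 0.0396). Leaving out any 1 of the 6 libraries ended the calls of Meg3 (adjusted p 0.0693 to 0.15) and Mirg (0.0814 to 0.163). Testing with no filter on low counts also ended that of Meg3 (0.0892). Rian passed without untreated library 3 or FSH21 library 2, and missed without each of the other 4 (up to 0.0911). Log2 fold changes in these fits stayed between 1.05 and 1.52.

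Dlk1, the paternally expressed protein-coding gene of the same domain, encodes a transmembrane relative of Notch ligands. Its untreated libraries measured 3.42, 4.40 and 4.88 CPM, and the FSH21 libraries 5.36, 5.60 and 4.88 CPM. The highest untreated and the lowest treated library lay side by side, and the log2 fold change of 0.32 (SE 0.44) did not pass (edgeR adjusted p = 0.759).

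H19, the maternally expressed noncoding RNA that shares an imprinting centre with Igf2, lies at chr7:142575529-142578143 on the minus strand. It measured 25.8, 20.9 and 27.2 CPM in untreated libraries 2, 3 and 4 and 45.3, 54.4 and 62.6 CPM with FSH21, with no overlap. H19 rose by a log2 fold change of 1.14 (SE 0.29, edgeR adjusted p = 0.0214). The call held without FSH21 library 2, and was lost without each of the other 5 libraries (adjusted p up to 0.0954) and with no filter on low counts (0.0576). Igf2 itself measured 1.52 to 2.44 CPM with FSH21 and 2.25 to 2.76 CPM untreated, overlapping groups, with a log2 fold change of -0.41 (SE 0.32, edgeR adjusted p = 0.522).

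Peg3 lies at chr7:6703892-6730431 on the minus strand and measured 136, 198 and 180 CPM untreated against 244, 324 and 289 CPM with FSH21. The lowest treated library exceeded the highest untreated one, and the log2 fold change was 0.74 (SE 0.15, edgeR adjusted p = 0.00553). Peg3 was the only one of the 7 to pass in each of the 6 fits that left out 1 library (adjusted p 0.00478 to 0.0318). Its neighbours differed: Zim1, a maternally expressed zinc-finger gene, had a log2 fold change of 0.50 without passing (SE 0.18, edgeR adjusted p = 0.097). Usp29, a deubiquitinase gene of the paternal copy, had 0.08 (SE 0.11, adjusted p = 0.772). Whether the genes of this domain changed by different amounts was not tested.

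Igf2r, at chr17:12682406-12769664 on the minus strand, measured 157, 210 and 189 CPM untreated and 223, 250 and 227 CPM with FSH21, a smaller step that still left no overlap. Its log2 fold change was 0.33 (SE 0.10, edgeR adjusted p = 0.0337). It passed without untreated library 3 and missed without each of the other 5 libraries (adjusted p up to 0.192, without untreated library 2, at a log2 fold change of 0.21). Upper quartile scaling (0.0526) and the fit of only the compared groups (0.0572) ended it too. Airn, the noncoding RNA that silences the paternal Igf2r copy, spans 28354 bases of the Igf2r gene but shares no exonic base with it. Its log2 fold change was 0.06 (SE 0.23, adjusted p = 0.934).

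Blcap, at chr2:157556362-157571274 on the minus strand, measured 71.6, 75.8 and 67.4 CPM untreated and 64.8, 63.7 and 59.1 CPM with FSH21. These groups did not overlap, and Blcap fell by 0.20 on the log2 scale (SE 0.06, edgeR adjusted p = 0.0411). It still passed without untreated library 4 or FSH21 library 2, and missed without each of the other 4 libraries (adjusted p up to 0.194), with no filter on low counts (0.117) and with only the compared groups in the fit (0.111). Nnat, inside its intron, measured 68.8, 101 and 108 CPM untreated and 51.1, 75.3 and 85.3 CPM with FSH21. Those groups overlap, although each treated library was below the untreated library of its number, at a log2 fold change of -0.39 (SE 0.21, edgeR adjusted p = 0.316).

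Nap1l5 and Magel2 had larger differences that did not pass. Nap1l5 (chr6:58905233-58907076, minus strand) measured 67.5, 57.1 and 65.2 CPM untreated and 22.6, 45.3 and 42.0 CPM with FSH21. The groups did not overlap, but the treated libraries lay 22.7 CPM apart, and the log2 fold change of -0.78 (SE 0.30) missed the threshold (edgeR adjusted p = 0.14). Magel2 (chr7:62377010-62381640, plus strand) was counted at 1, 8 and 9 reads untreated and 10, 14 and 22 reads with FSH21, with a log2 fold change of 1.44 (SE 0.60, adjusted p = 0.157). With so few reads, no firm order of the Magel2 libraries can be read.

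Among the genes not described so far, Mest, a paternally expressed hydrolase-family gene of mesoderm, had a log2 fold change of 0.26 (SE 0.08, edgeR adjusted p = 0.0553), and Asb4, a maternally expressed ubiquitin-ligase adaptor, -0.47 (SE 0.16, adjusted p = 0.0777). Ndn stood at 0.25 (SE 0.09, adjusted p = 0.0816) and Sgce, the sarcoglycan of the Peg10 domain, at 0.23 (SE 0.08, adjusted p = 0.0909). Cdkn1c, the cyclin-dependent kinase inhibitor p57, had 0.33 (SE 0.17, adjusted p = 0.294) and Grb10 -0.29 (SE 0.23, adjusted p = 0.537). Peg10, the placental gene, was at 0.09 (SE 0.27, adjusted p = 0.906), and Ube3a, the ubiquitin ligase of Angelman syndrome, at -0.04 (SE 0.07, adjusted p = 0.813). Snrpn, which encodes a splicing protein, had 0.02 (SE 0.10, adjusted p = 0.958). Slc22a18, a transporter gene of the Kcnq1ot1 domain, had 1.20 (SE 0.62, adjusted p = 0.273) from 20 untreated and 42 treated reads.

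Libraries of the same number in this comparison deviated together across genes, and with the number as a block, 13 of the 37 genes passed, 9 higher and 4 lower, where 15.1% of all tested genes did. The 7 genes above were among them. The other 6, in edgeR's blocked fit, were Zim1 (adjusted p = 0.0334), Mest (0.0417) and Ndn (0.0444), higher, and Asb4 (0.0333), Nnat (0.0331) and Grb10 (0.00898), lower. Grb10 measured 125, 220 and 196 CPM untreated and 113, 177 and 152 CPM with FSH21, each treated library below the untreated one of its number.

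Marker sums moved between the same groups. Oocyte markers summed to 8538 to 9004 CPM in untreated libraries 2, 3 and 4 and to 7602 to 8501 CPM with 10 ng/ml FSH21, without overlap, while 0 of the 24 passed as lower. Granulosa markers summed to 7637 to 9334 CPM untreated and 9253 to 10310 CPM with FSH21, and 6 of the 13 rose. The sums of 8 surface-epithelium markers were 42.6 to 52.5 CPM untreated and 82.3 to 83.6 CPM treated, with 1 of the 7 tested higher. Theca and stroma sums overlapped, at 4524 to 7000 CPM untreated and 4465 to 6474 CPM treated, and 2 of those 20 markers rose. Untreated libraries 2, 3 and 4 also lay above untreated libraries 1, 5 and 6 in the oocyte sum, which was 7036 to 8281 CPM in the latter, and 2 of the 3 FSH21 values fall within that range. The part of these markers in the results on imprinted genes was not tested.

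**Figure D3:**
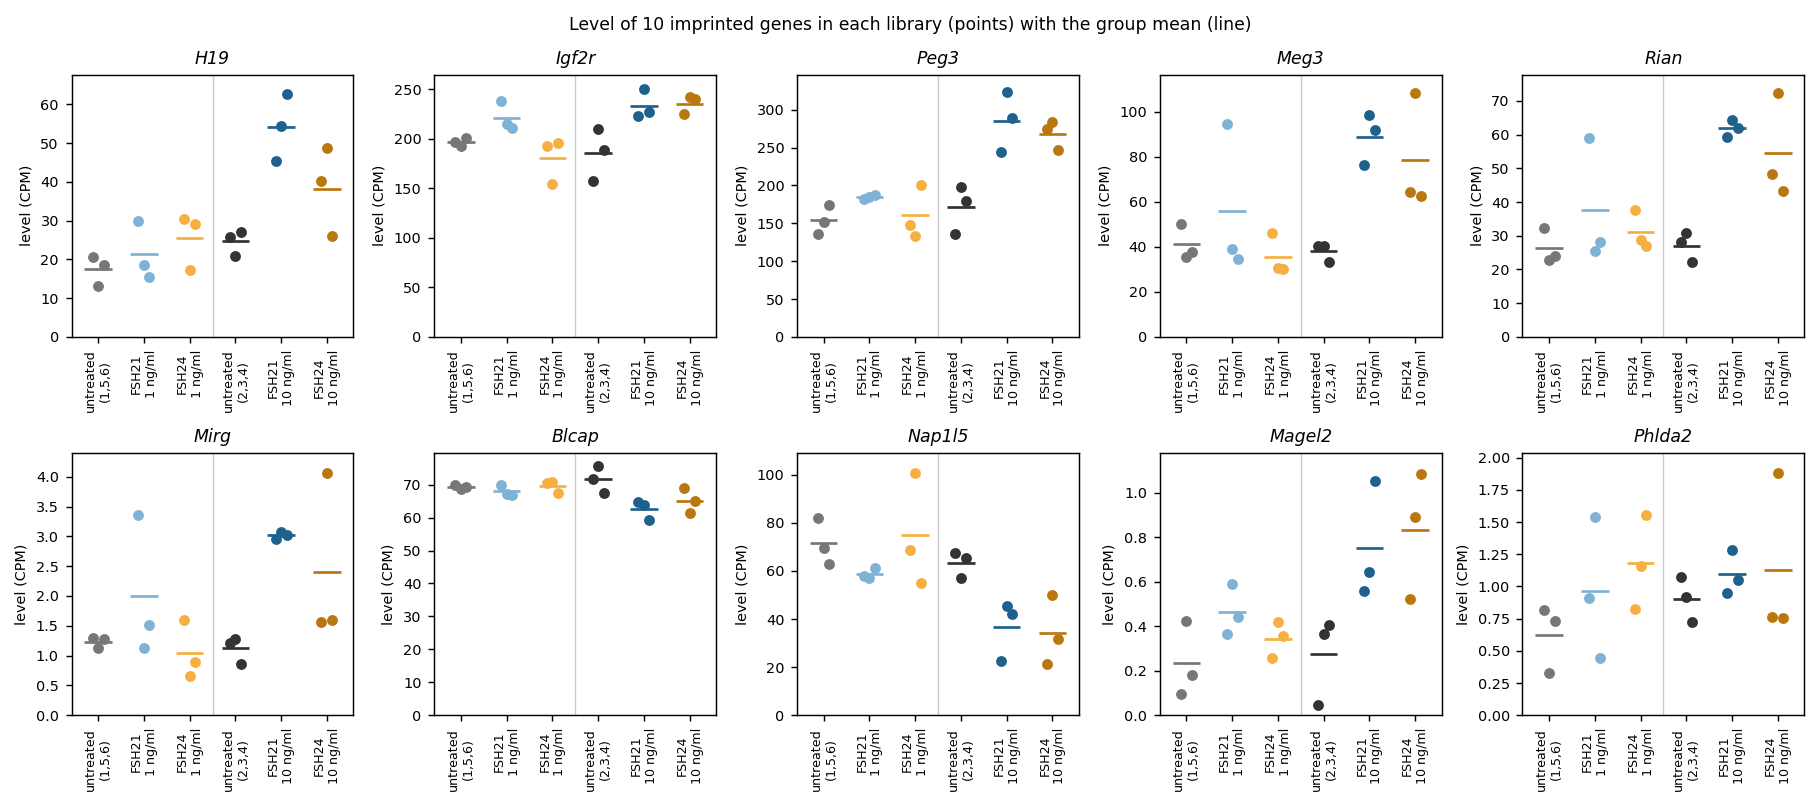
Level in CPM of 10 imprinted genes in each of the 18 libraries, as points, with the group mean as a line; each axis starts at 0 and the grey line parts the 1 ng/ml cultures with untreated libraries 1, 5 and 6 from the 10 ng/ml cultures with untreated libraries 2, 3 and 4. Meg3, Rian, Mirg and Peg3 lie higher in all 3 libraries of FSH21 at 10 ng/ml than in their untreated libraries, and 1 library of FSH21 at 1 ng/ml reaches 94.6 CPM for Meg3.

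With 10 ng/ml FSH24, 3 of the 37 imprinted genes passed, all higher: Peg3, Igf2r and Rian. That is 8.11% of the 37, beside 8.42% of all tested genes, a share near the background, and 5.12% of all tested genes passed as higher. With the number as a block, 11 of the 37 passed, 8 higher and 3 lower, where 13.6% of all tested genes did. The share near the background therefore holds for the fit without the block only. The untreated libraries are those already used for FSH21, so the comparisons are not independent. Peg3 measured 274, 283 and 246 CPM in FSH24 libraries 2, 3 and 4, all above the untreated ones, at a log2 fold change of 0.65 (SE 0.15, edgeR adjusted p = 0.0152). Igf2r measured 224, 242 and 240 CPM, also without overlap, at 0.35 (SE 0.10, adjusted p = 0.0305). Rian measured 48.4, 72.4 and 43.3 CPM, without overlap but with library 3 well above the others, at 1.01 (SE 0.29, adjusted p = 0.0476). The Rian call was lost whichever of the 6 libraries was left out (adjusted p up to 0.188), with no filter on low counts (0.116) and with upper quartile scaling (0.0552). Igf2r passed only without untreated library 3 among these fits (up to 0.187), and Peg3 was lost without untreated library 2, FSH24 library 2 or FSH24 library 3 (up to 0.0717), and with no filter (0.0502).

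In the same FSH24 libraries Meg3 measured 64.3, 108 and 62.8 CPM and Mirg 1.57, 4.06 and 1.60 CPM, each above its untreated range and each highest in library 3. Their log2 fold changes were 1.05 (SE 0.35, edgeR adjusted p = 0.0907) and 1.10 (SE 0.43, adjusted p = 0.135), neither past the threshold, although Meg3 passed in DESeq2 (adjusted p = 0.0297). Without FSH24 library 3 they were 0.74 and 0.50. H19 measured 40.2, 48.6 and 26.0 CPM, and its last library lay within the untreated range, with a log2 fold change of 0.63 (SE 0.29, adjusted p = 0.225). Blcap, at 69.0, 61.4 and 65.0 CPM, overlapped its untreated libraries, at -0.14 (SE 0.06, adjusted p = 0.186). Nap1l5 measured 21.2, 50.2 and 31.5 CPM, below its untreated libraries, at -0.89 (SE 0.31, adjusted p = 0.103), and passed without FSH24 library 3 (adjusted p = 0.0226, log2 fold change -1.26) and in DESeq2 (adjusted p = 0.0360). Magel2, at 11, 18 and 23 reads, had a log2 fold change of 1.58 (SE 0.60, adjusted p = 0.123). Libraries did not overlap for 11 of the 37 genes, higher in 9 and lower in 2, where 24.5% of all tested genes did not overlap (13.8% higher, 10.7% lower), and the median log2 fold change was 0.05 beside 0 for all genes. Oocyte markers summed to 7393 to 8120 CPM with FSH24, below the untreated range, with 1 of the 24 lower, and surface-epithelium markers to 75.6 to 86.6 CPM, above it, with 1 of 7 higher. Granulosa markers summed to 8687 to 9788 CPM, overlapping the untreated range, with 4 of 13 higher, and 2 of the 20 theca and stroma markers were higher. Their part was not tested.

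**Figure D4:**
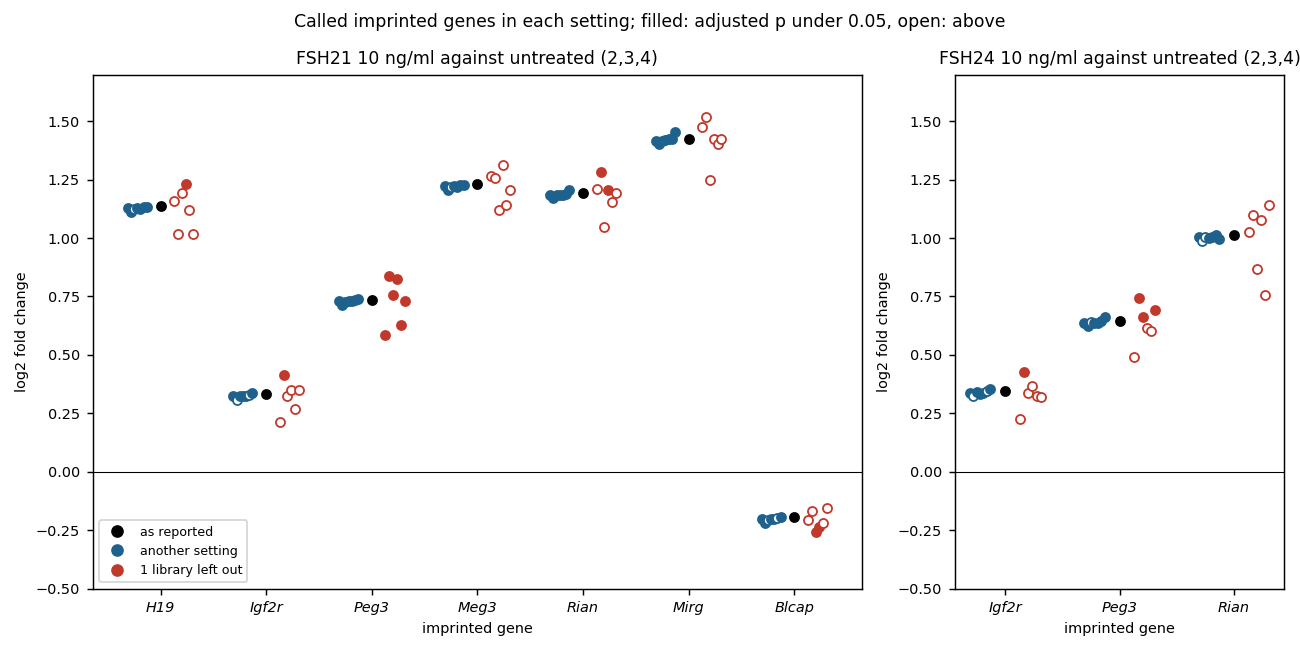
Log2 fold change of each imprinted gene that passed, for 10 ng/ml FSH21 (left) and FSH24 (right), as reported (black), under another setting (blue) and with 1 library left out (red); filled points have an adjusted p under 0.05. All points of Peg3 with FSH21 are filled, while those of Meg3 and Mirg with a library left out, between 1.12 and 1.52, are open.

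At 1 ng/ml, 0 of the 37 passed with FSH21 (edgeR), where 0.128% of all tested genes did. By DESeq2, 0 of the 37 and 111 of all 18727 tested genes passed. At unadjusted p under 0.05 there was 1, Copg2, a coatomer subunit, at a log2 fold change of 0.18 (SE 0.08, adjusted p = 0.662). With FSH24, 0 of the 37 and 0.00% of all tested genes passed in edgeR, and 0 of the 37 in DESeq2. The 2 genes under an unadjusted 0.05 there were Sgce at 0.18 (SE 0.08) and Commd1, a copper-handling and NF-kappa-B regulator, at 0.32 (SE 0.12), both with an adjusted p of 0.815. With FSH24, libraries did not overlap for 4 of the 37 genes, beside 10.3% of all tested genes. Phlda2, a growth-restraining placental gene, was the only one with a log2 fold change above 0.5 among those 4. Its untreated libraries 1, 5 and 6 measured 0.815, 0.328 and 0.730 CPM and the FSH24 libraries 0.828, 1.16 and 1.56 CPM. The groups almost touch, and the log2 fold change of 0.92 (SE 0.48) did not pass (edgeR adjusted p = 0.824).

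For the 3 noncoding RNAs of the Dlk1-Meg3 domain, library 1 of FSH21 at 1 ng/ml stood apart. Meg3 measured 94.6 CPM there and 39.2 and 34.7 CPM in libraries 5 and 6, with 50.1, 35.5 and 37.9 CPM untreated. Rian measured 58.9, 25.5 and 28.2 CPM against 32.2, 23.0 and 23.9 CPM, and Mirg 3.36, 1.13 and 1.52 CPM against 1.29, 1.12 and 1.28 CPM. Library 1 was the highest of its group for each of the 3 genes in the untreated and in both 1 ng/ml groups. Log2 fold changes with FSH21 were 0.45 (SE 0.35), 0.51 (SE 0.29) and 0.70 (SE 0.43), with adjusted p of 0.903, 0.801 and 0.818. Without FSH21 library 1 the Meg3 value turned to -0.15. The genes called with both forms at 10 ng/ml besides Rian were Peg3 and Igf2r. At 1 ng/ml FSH21, Peg3 measured 182, 185 and 187 CPM against 136, 151 and 174 CPM untreated, without overlap, with 0.26 (SE 0.15, adjusted p = 0.807). Igf2r measured 238, 215 and 210 CPM against 197, 193 and 201 CPM, also without overlap, with 0.17 (SE 0.10, adjusted p = 0.794).

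Set directly against each other, FSH21 and FSH24 were compared over the 37 genes at both doses, and 0 passed at 10 ng/ml or at 1 ng/ml in edgeR or DESeq2. Of all tested genes 0.00% passed at 10 ng/ml and 0.0107% at 1 ng/ml in edgeR. In DESeq2, 5 of all 18727 tested genes passed at 10 ng/ml and 204 at 1 ng/ml. With the number as a block in edgeR, 0 and 177 of them passed, and again 0 of the 37. At unadjusted p under 0.05 in edgeR without the block there were 0 of the 37 at 10 ng/ml and 4 at 1 ng/ml. At 10 ng/ml the difference of FSH21 minus FSH24 was 0.50 for H19 (95% interval -0.10 to 1.11), 0.18 for Meg3 (-0.55 to 0.92) and 0.18 for Rian (-0.43 to 0.79) on the log2 scale. The interval for Mirg ran from -0.53 to 1.18. Those for Peg3 (0.09, -0.24 to 0.42) and Igf2r (-0.01, -0.22 to 0.19) were narrower. At 1 ng/ml the 4 were Igf2r at 0.29 (0.09 to 0.49), Usp29 at 0.25 (0.01 to 0.48), Zim1 at 0.39 and Mirg at 0.94. Their adjusted p lay between 0.321 and 0.527.

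The change of effect between doses was taken as the effect at 10 minus that at 1 ng/ml, each dose against its own untreated libraries. It passed for 0 of the 37 genes with either form in edgeR without the number as a block. Of all tested genes 0.272% passed for FSH21 and 2.45% for FSH24. Unadjusted p fell under 0.05 for 2 genes with FSH21 and 8 with FSH24. Igf2r came nearest with FSH24, at 0.47 (SE 0.14, edgeR adjusted p = 0.0842), its effects being 0.35 at 10 and -0.12 at 1 ng/ml. Igf2r passed this comparison in DESeq2, where 1 of the 37 did for FSH24 and 0 for FSH21. In DESeq2, 816 of all 18727 tested genes passed for FSH24 and 167 for FSH21. With the number as a block in edgeR, 4 of the 37 passed for FSH24 (Igf2r, Peg3, Meg3 and Grb10) and 0 for FSH21. Of all tested genes, 6.30% and 1.22% passed in that fit. The doses were run in libraries of different numbers. Between the untreated sets themselves, 0 of the 37 genes passed in edgeR or DESeq2, with 0 under an unadjusted 0.05 and 0.00% of all tested genes called. H19 was higher in all 3 untreated libraries 2, 3 and 4 than in 1, 5 and 6, at 20.6, 13.3 and 18.7 CPM in the latter. The sets almost touch, since untreated library 3 measured 20.9 CPM, and H19 did not pass.

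Levels of several imprinted genes went with the library number. For each gene, the squared deviations from the group means in log2 CPM were split into a part carried by the number means and a rest. The first part was 93.4% of the whole for Grb10, 86.5% for Zdbf2, a zinc-finger gene active before and after birth, and 81.4% for Ppp1r9a, the actin-binding neurabin. It was 80.3% for Peg10 and 78.4% for Nnat. The median was 53.9% over the 37 genes and 45.6% over all tested genes. Unrelated libraries give a value above 0 too, so these shares overstate what libraries of the same number had in common. Across genes, deviations of same-numbered libraries correlated at 0.0496 to 0.235. Peg10 was low in number 2, at 168, 235 and 220 CPM in the untreated, FSH21 and FSH24 libraries, where numbers 3 and 4 measured 285 to 320 CPM. It was also low in number 1, at 175, 176 and 182 CPM. Grb10 was likewise lowest in number 2, at 125, 113 and 113 CPM. Zdbf2 went the other way in number 1, at 15.8, 20.2 and 16.0 CPM, against 6.18, 7.75 and 6.50 CPM in number 5. Theca and stroma markers were lowest in number 2 as well, summing to 4524, 4465 and 4718 CPM there and to 5632 to 7000 CPM in numbers 3 and 4. Their part in these levels was not tested. What a number stands for is not given in the sources used here.

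**Figure D5:**
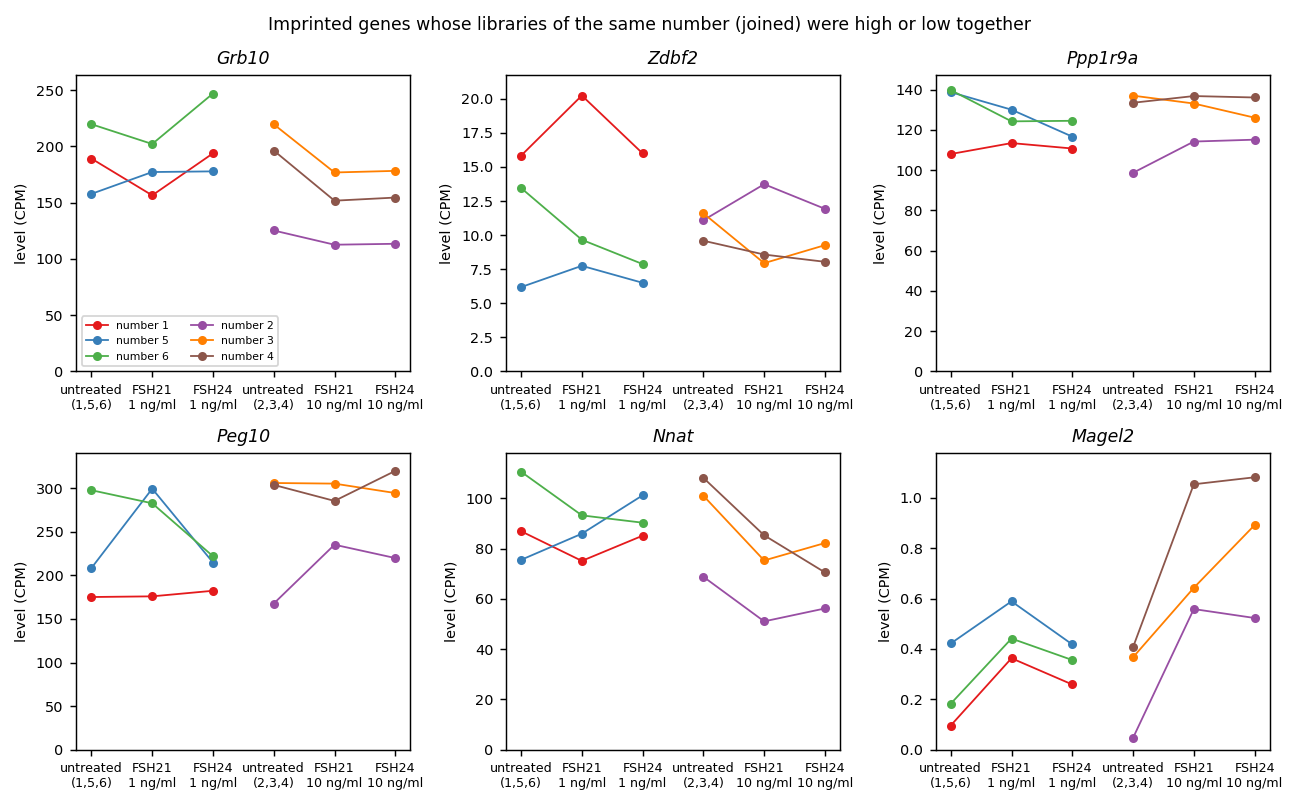
Level in CPM of the 6 imprinted genes with the highest share of within-group spread carried by the number means. Lines join libraries of 1 number over the untreated, FSH21 and FSH24 cultures of a dose, and each axis starts at 0. Grb10, Peg10 and Nnat lie lowest in number 2 in all 3 groups, and Zdbf2 highest in number 1.

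Beyond the 37, a list of 55 other genes described as imprinted in the mouse, mostly in placenta or brain, had 44 tested. It too was chosen with earlier results of these data known, so its shares are descriptive. With 10 ng/ml FSH21, 7 rose and 1 fell, which is 18.2% of the 44 beside 10.2% of all tested genes. With the number as a block 13 passed, where 15.1% of all tested genes did. With FSH24, 6 rose and 1 fell, 15.9% beside 8.42%. At 1 ng/ml 0 passed with either form in edgeR or DESeq2, with 6 and 1 under an unadjusted 0.05. Their median log2 fold changes at 10 ng/ml were 0.07 and 0.03. Gatm, which makes the creatine precursor guanidinoacetate, rose from 34.4 ± 2.02 to 63.8 ± 5.47 CPM with FSH21 (SD, n = 3), a log2 fold change of 0.89 (SE 0.19, edgeR adjusted p = 0.00631), and by 0.82 with FSH24 (adjusted p = 0.0125). Dhcr7, the last enzyme of cholesterol synthesis, rose by 0.92 (SE 0.10) and 0.74 (SE 0.10), with adjusted p of 1.27e-05 and 0.000158. Kcnq1, the potassium channel gene that contains Kcnq1ot1, rose by 0.55 (SE 0.13, adjusted p = 0.00773) and 0.50 (SE 0.13, adjusted p = 0.0175), and Inpp5f, a phosphoinositide phosphatase gene, by 0.42 and 0.43 (SE 0.08 each, adjusted p = 0.00126 and 0.00138). The noncoding Kcnq1ot1, silencer of that domain, was counted over its single exon inside Kcnq1 and had -0.37 (SE 0.21, adjusted p = 0.346) and -0.22 (SE 0.21, adjusted p = 0.651). Smoc1, a matricellular protein gene, rose by 0.30 (SE 0.08, adjusted p = 0.0215) and 0.34 (SE 0.08, adjusted p = 0.0108). Osbpl5, an oxysterol-binding protein gene, fell from 300.4 ± 13.9 to 191 ± 9.73 CPM with FSH21 and 214 ± 3.24 CPM with FSH24. That is -0.65 (SE 0.07, edgeR adjusted p = 9.24e-06) and -0.49 (SE 0.07, adjusted p = 0.000223). Of the 6 fits that each left out 1 library, Kcnq1 passed in 4 with FSH21 and in 2 with FSH24. Its edgeR adjusted p was highest without untreated library 4, at 0.0566 and 0.105. Smoc1 passed in 1 and in 4 of those fits (up to 0.142 and 0.0974), and Gatm with FSH24 in 2 (up to 0.0617). Gatm with FSH21, and Dhcr7, Inpp5f and Osbpl5 with both forms, passed in all 6.

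Of 30 genes that set, keep or erase imprints (DNA methyltransferases, their cofactors, zinc-finger readers and histone demethylases), 29 were tested. With 10 ng/ml FSH21, 2 rose, 6.90% of the 29 beside 5.96% of all tested genes, a share near the background, and the median over the list was -0.03. They were Kdm1a, a histone H3K4 demethylase, by 0.19 (SE 0.05, edgeR adjusted p = 0.0356) and Ctcf, the insulator protein that binds the H19 control region, by 0.18 (SE 0.06, adjusted p = 0.0463). Ctcf lost the call without any 1 of the 6 libraries (adjusted p up to 0.222), and Kdm1a held it without 1 of them, at 0.0498. Both calls were also lost with upper quartile scaling, with no filter on low counts and with only the compared groups in the fit (adjusted p 0.0606 to 0.224), and that of Ctcf with RLE scaling (0.0596). With 10 ng/ml FSH24, 0 of the 29 passed in edgeR and 2 in DESeq2, with 4 under an unadjusted 0.05. In DESeq2, 1958 of all 18727 tested genes passed there. At 1 ng/ml, 0 passed in edgeR or DESeq2 with either form, with 0 for FSH21 and 1 for FSH24 under an unadjusted 0.05.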

How the data were processed

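RNA of mouse follicles was sequenced as 18 libraries in 6 groups of 3. Each library is deposited as 4 samples, 1 per sequencing lane (72 in all), and as 1 column of a gene table. The authors' values are expected counts per gene, by the column names those of RSEM, and 33.9% of the non-zero values are not whole. Per the submitters' processing notes, bcl2fastq, FastQC and STAR 2.7 with build mm10 were used; the RSEM version, annotation and use of strand are not given in the sources used here.

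Expected counts were rounded and tested with edgeR 4.0.16 (R 4.3.3): TMM scaling, filterByExpr with a minimum count of 10, and a robust quasi-likelihood fit with 1 mean per group over all 18 libraries. P-values were adjusted by Benjamini and Hochberg over 18727 genes. The call threshold was an adjusted p of 0.05. Intervals are 95% intervals from the same fit. CPM are TMM-scaled. The common biological coefficient of variation was 0.135, and replicate pairs varied 9.30 to 25.1 times more than counting noise. Rows without a symbol held 0.0795% of counts. In 10 ng/ml FSH21 against untreated, deviations of same-numbered libraries correlated at 0.126 to 0.206 across genes, each over 0.1, so the number was also fitted as a block. In the other comparisons at least 1 pair was lower.

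Values per library are given for genes called in any comparison, and for those without overlap and a log2 fold change of at least 0.5 with treatment. Of the 2 further lists, called genes are named, at most 6 each. The 37 genes and the lists were chosen with earlier results of these data known. Positions and exon lengths are from GENCODE M21 (GRCm38), promoters from RefSeq.

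Alternatives were RLE and upper quartile scaling, no filter, a minimum count of 30, DESeq2 1.42.0, only the compared groups, the block, and each library left out.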

Additional observations from a re-analysis of the deposited data

Results flagged for a closer look

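In the list of other imprinted genes, the effect of treatment differed between doses for 3 genes by a test of the difference itself (effect at 10 minus effect at 1 ng/ml, edgeR, adjusted over all tested genes). Osbpl5 differed by -0.59 with FSH21 (SE 0.10, adjusted p = 0.0142) and by -0.44 with FSH24 (SE 0.10, adjusted p = 0.0229). Its own effects at 1 ng/ml were -0.06 and -0.04, against -0.65 and -0.49 at 10 ng/ml. Dhcr7 differed by 0.71 with FSH24 (SE 0.15, adjusted p = 0.0137), and Inpp5f by 0.48 with FSH24 (SE 0.11, adjusted p = 0.0263). The differences of Dhcr7 and Inpp5f with FSH21 did not pass, at 0.66 (adjusted p = 0.0741) and 0.30 (adjusted p = 0.515). Among the 12 fits that each left out 1 library, Osbpl5 passed in 12 with FSH21 and in 10 with FSH24, Dhcr7 in 10 and Inpp5f in 4. Without untreated library 4, Osbpl5 with FSH24 reached 0.0607 and Dhcr7 0.0588, and without FSH24 library 4 at 10 ng/ml Inpp5f reached 0.0986. The doses were run in libraries of different numbers, so dose and number cannot be told apart. The groups held too few libraries to look for single outlying ones.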

How the results depend on the processing

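No called log2 fold change of the genes named changed sign under any alternative run. Of all 37 genes, 9 changed sign in at least 1 alternative with FSH21 at 10 ng/ml, each at 0.10 or less as reported, and 13 with FSH24, at 0.32 or less. Among values that did not pass, Snrpn with FSH21 at 10 ng/ml turned to -0.0068 with upper quartile scaling. Leaving out 1 library gave -0.066 to 0.056 for Snrpn, -0.052 to 0.154 for Usp29, -0.0956 to 0.161 for Airn and -0.160 to 0.209 for Peg10 in that comparison. It gave -0.153 to 0.695 for Meg3 with FSH21 at 1 ng/ml. For FSH21 against FSH24 at 10 ng/ml it gave -0.0041 to 0.186 for Peg3 and -0.062 to 0.011 for Igf2r. For 10 ng/ml FSH21, 7 genes of the 37 passed, 4 with no filter on low counts and 13 with the replicate block. Leaving out 1 library gave 1 to 4. Of all tested genes, 1906 of 18727 passed as reported, 1648 of 36282 with no filter and 2819 of 18727 with the block. Leaving out 1 library gave 1250 of 19199 to 1630 of 19224, so calls were fewer over the whole table too. For 10 ng/ml FSH24, 3 passed, 1 with upper quartile scaling, 1 with no filter, 6 with DESeq2 and 11 with the replicate block. Those 11 were 8 higher (Peg3, Igf2r, Rian, Meg3, Zim1, Sgce, Ndn and Magel2) and 3 lower (Asb4, Grb10 and Nnat), where 13.6% of all tested genes passed. Leaving out 1 library gave 0 to 3. Of all 18727 tested genes, 1577 passed as reported, 1533 with upper quartile scaling and 1958 with DESeq2. With no filter it was 1373 of 36282, and with 1 library left out 982 of 19199 to 1439 of 19212. For the dose difference of FSH24, 0 passed, 1 with no filter and 1 with DESeq2 (Igf2r in both), 4 with the block (Igf2r, Peg3, Meg3 and Grb10), and 0 to 1 with a library left out. Of all 18727 tested genes, 458 passed as reported, 816 with DESeq2 and 1180 with the block. With no filter it was 455 of 36282, and with 1 library left out 217 of 19213 to 517 of 19189. The other 6 counts of the 37 were 0 in every setting run. A minimum count of 30 and RLE scaling left all 9 counts as reported. Upper quartile scaling and the fit of only the compared groups ended the calls of Igf2r with both forms at 10 ng/ml (adjusted p 0.0508 to 0.0752). Upper quartile scaling also ended Rian with FSH24, and the compared groups alone ended Blcap with FSH21. No filter ended H19, Meg3 and Blcap with FSH21 and Peg3 and Rian with FSH24. The cause was not tested. In the comparisons other than FSH21 at 10 ng/ml against untreated the numbers were not taken as pairs, though in each of the 6 all 6 libraries correlated best with their own number, a hint from the data only. No block could be fitted between the untreated sets, which share no number. Alternatives for the 2 further lists were chosen after seeing the data: of the other imprinted genes, 4 to 10 passed with FSH21 at 10 ng/ml when a library was left out, and of the imprint-setting genes 0 to 1. The 2 imprint-setting calls were 1 with RLE scaling and 0 with upper quartile scaling, no filter or only the compared groups. Genes counted at few reads, such as Magel2 and Slc22a18, are limited by depth.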
